A study of Homo sapiens with 4 samples.

Results

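The 27 genes described here make, sense, move and store cholesterol in human cells. They were listed by name: 19 enzymes of sterol synthesis, 4 genes that control the transcription factor SREBP2, and 4 genes of sterol transport and storage. Expression was read from the probe sets, the groups of short oligonucleotides that report 1 transcript on the array, whose platform annotation gave exactly 1 gene symbol equal to a listed gene. Every such probe set was kept, which gave 52 probe sets for 25 of the 27 genes, out of 19775 genes with a probe set of 1 symbol. FDFT1, which makes squalene, had none, and CYP51A1, the sterol demethylase, was named only on 2 probe sets shared with another gene, so neither was measured. Of the measured genes, 12 had 1 probe set and 13 had more than 1, up to 4.

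The cells were CaSki, a human cervical squamous carcinoma line that carries papillomavirus DNA. They had received either ZNF750, a zinc finger protein of differentiating squamous epithelium, or GFP as the control, in both cases by lentivirus, and the study asked which genes ZNF750 regulates. Total RNA from 2 ZNF750-labelled and 2 GFP-labelled cultures was hybridized to 4 single-colour Affymetrix HG-U133 Plus 2.0 arrays. Per the labels, all groups grew in DMEM with 0% fetal bovine serum and the same antibiotics. The promoter driving the transgene, the time after transduction, and whether the cells were pools or clones are not given in the sources used here. The duplicates are called biologic without saying how the cultures were made, so the p-values measure the spread between these arrays, which may be technical.

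Cells make cholesterol from acetyl-CoA through mevalonate, farnesyl diphosphate, squalene and lanosterol. When sterol in the endoplasmic reticulum is low, SCAP escorts SREBP2 to the Golgi, where it is cleaved and released to switch on the enzymes of the route; when sterol is high, the INSIG proteins hold SCAP back. Squamous epithelium uses cholesterol for its outer lipid barrier.

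ZNF750 itself was read by a single probe set, 219995_s_at, and showed no rise. It lay at log2 values of 2.23 and 2.29 on the ZNF750-labelled arrays and 2.13 and 2.37 on the GFP-labelled arrays, so the groups overlapped (limma adjusted p = 0.992). This probe set therefore does not check the labels, and which transcript region it reads against the introduced sequence was not tested. The squamous markers measured lay between 11.9 and 13.1 on the ZNF750-labelled arrays and between 11.7 and 12.8 on the GFP-labelled arrays, and the simple epithelial markers reached 12.8 with ZNF750 and 12.7 with GFP. Some of them moved with the group: of these 8 markers, the keratins KRT14 (1.10, adjusted p = 2.34e-05), KRT5 (0.24, adjusted p = 0.00446) and KRT19 (0.16, adjusted p = 0.0309) rose and KRT18 fell (-0.34, adjusted p = 0.00408), in limma. Their part in the members' differences was not tested. The leukocyte markers reached at most 5.96 on the ZNF750-labelled arrays and 5.79 on the GFP-labelled arrays, and the endothelial ones 6.12 with ZNF750 and 5.99 with GFP. Of the fibroblast markers, COL1A1 was highest, with 8.46 on the ZNF750-labelled arrays and 8.27 on the GFP-labelled arrays. The steroidogenic markers lay between 4.09 and 5.04 on the ZNF750-labelled arrays and between 4.11 and 5.07 on the GFP-labelled arrays, and the hepatocyte markers reached 6.72 with ZNF750 and 6.57 with GFP. RNA quality moved with the group. The control probe set at the 3′ end of ACTB exceeded that at its 5′ end, a check of RNA integrity, by 3.76 and 3.35 on the ZNF750-labelled arrays and 3.03 and 2.81 on the GFP-labelled arrays. For GAPDH it was 0.85 and 0.80 with ZNF750, against 0.63 and 0.61 with GFP. Both measures were higher in both ZNF750-labelled arrays. The part of this shift in the differences below was not tested.

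More members fell than rose, by small amounts. Total RNA of a culture cannot tell fewer cells that express a gene from less RNA per cell. Values are log2 signals after robust multi-array averaging (RMA) by the authors, and differences are ZNF750 minus GFP from limma with its standard error; a probe set was called when its p, adjusted by Benjamini-Hochberg over all 54613 non-control probe sets, was under 0.05. Of the 52 member probe sets 8 fell, or 15.4%, where 7.19% of all probe sets did, and 1 rose, or 1.92%, where 4.3% of all did. A gene was counted as lower when at least 1 of its probe sets fell and none rose. By that rule 8 of the 25 measured members fell (32%, beside 12.4% of all genes), 1 rose (4%, beside 7.72% of all genes), 16 were not called and 0 had calls both ways. The genes that fell were AACS, PMVK, SQLE, LSS, NSDHL, EBP, NPC2 and SOAT1, and the gene that rose was SREBF2. The same shares of all genes stand beside the counts by pathway step below. These shares are set against many dim features. Among probe sets with a mean of at least 6, a comparison chosen after the data had been seen, 7 of 38 member probe sets fell (18.4%), close to the 15.7% of all such probe sets. By gene, 8 of the 23 members whose brightest probe set reached 6 fell (34.8%), beside 21.4% of all such genes, and 1 rose (4.35%), beside 11.1%. With the test refitted on those probe sets alone, 10 of the members' fell, where 20.8% of all did. Centring the arrays on their brighter probe sets moved the calls over all probe sets to 8.2% higher and 6.24% lower, and under it 7 members still fell and 1 rose.

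Below the calls, the same tilt was seen in the values. The difference was below 0 for 40 of the 52 member probe sets (76.9%), against 44.5% of all probe sets. Among probe sets with a mean of at least 6 it was below 0 for 78.9% of the members' and 56% of all. Taking for each gene its brightest probe set, the one with the highest mean over all arrays, the median difference was -0.14 over the members and 0.036 over all genes. The member median was -0.074 under cyclic loess, -0.073 under centring and -0.078 under a second quantile normalization, against 0.031, 0.099 and 0.034 over all genes. Both ZNF750-labelled arrays lay below both GFP-labelled arrays for 26 member probe sets (50%, beside 24.3% of all probe sets) and above them for 4 (7.69%, beside 29.9% of all). The groups overlapped for the other 22. Other scalings kept this tilt: under cyclic loess, centring and a second quantile normalization, 37, 32 and 36 member probe sets (71.2%, 61.5% and 69.2%) were below 0, against 49.7%, 32.4% and 49% of all probe sets. Of the members described, FDPS, SCAP, the brightest probe sets of DHCR7 and NPC1, and some probe sets of MVK, LSS, SQLE, SC5D, INSIG1 and SREBF2 changed sign under at least 1 of these, and none of these probe sets was called. All 52 differences lay between -0.54 and 0.30, and 3 of the 8 that fell had a size of at least 0.5. Leaving out any 1 array leaves a group with 1 array. Every member call but that of EBP was then lost, and that of EBP was lost without either GFP-labelled array. Calls over all probe sets also dropped, far more without a GFP-labelled array than without a ZNF750-labelled one. The sizes moved little, with AACS between -0.50 and -0.42 and NPC2 between -0.36 and -0.32. When limma's prior variance was not allowed to vary with intensity, EBP alone was called, 1 of the 52, where 1.38% of all probe sets fell and 0.952% rose.

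**Figure D1:**
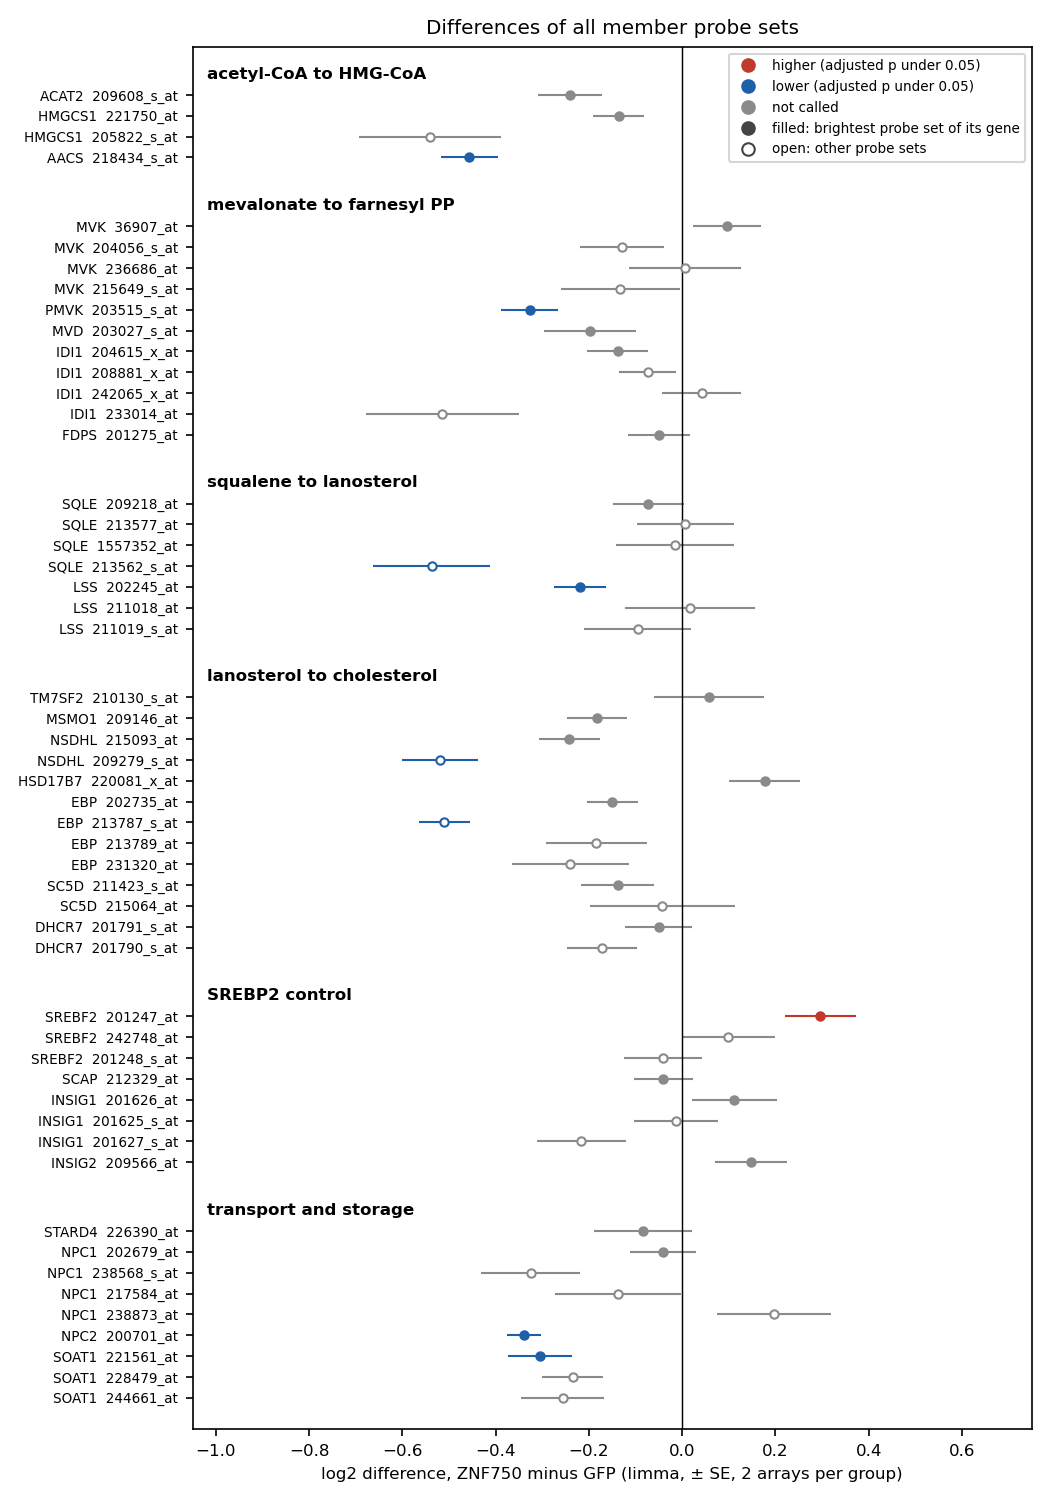
Differences of all 52 member probe sets in pathway order. Each point is the log2 difference, ZNF750 minus GFP, with limma's standard error (2 arrays per group); blue probe sets fell, the red one rose, grey ones were not called, and filled points mark the brightest probe set of each gene. Of the points, 40 lie left of 0.

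**Figure D2:**
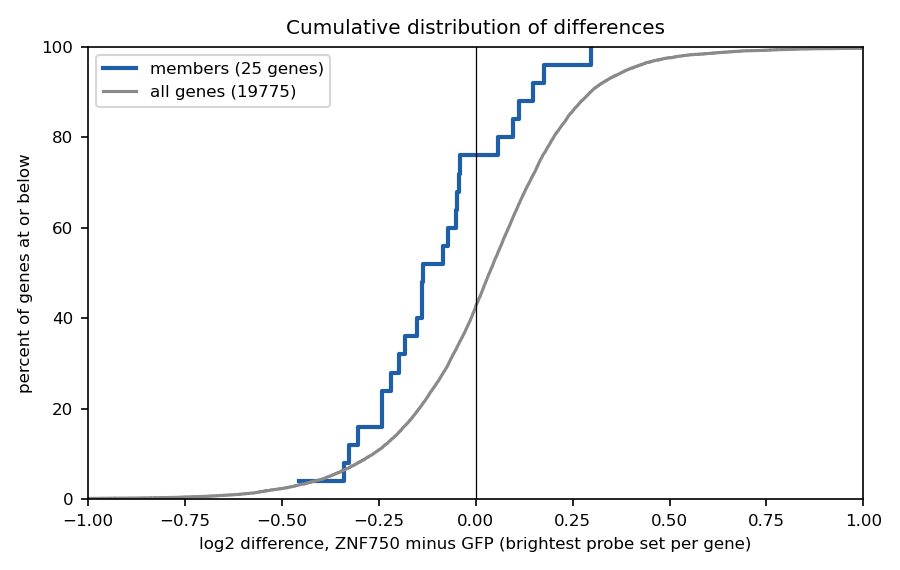
Percent of genes (vertical axis) at or below each log2 difference, ZNF750 minus GFP (horizontal axis), for the brightest probe set of each of 25 members (blue) and of all 19775 genes (grey). The member curve passes 0 at 76% of genes and the curve of all genes at 42.6%.

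At the entry of the route, 1 of 3 measured genes fell. AACS, which activates acetoacetate so that ketone bodies can feed sterol synthesis, had 8.69 and 8.68 on the ZNF750-labelled arrays, against 9.11 and 9.18 on the GFP-labelled arrays. The groups stood well apart, and AACS was 1.37-fold lower (-0.46 ± 0.061, adjusted p = 0.00494). ACAT2, the cytosolic thiolase that joins acetyl-CoA units, had 9.14 and 9.23 on the ZNF750-labelled arrays and 9.50 and 9.36 on the GFP-labelled arrays. Its groups did not overlap, but the difference of -0.24 ± 0.069 missed the threshold (adjusted p = 0.0658). HMGCS1, which makes HMG-CoA, had a brightest probe set, 221750_at, at 9.65 and 9.66 in ZNF750-labelled cells and 9.83 and 9.75 in GFP-labelled cells (-0.14 ± 0.055, adjusted p = 0.165). Its other probe set, 205822_s_at, with a mean below 6, gave 5.26 and 5.70 with ZNF750, against 5.99 and 6.05 with GFP. That is a difference of -0.54 ± 0.15, with the first ZNF750-labelled array further down than the second, and it also missed the threshold (adjusted p = 0.0636).

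Between mevalonate and farnesyl diphosphate, 1 of 5 genes fell. PMVK, the second mevalonate kinase, had 8.62 and 8.68 in ZNF750-labelled cells, against 8.97 and 8.98 in GFP-labelled cells, with a gap between the groups several times the spread within them. It was 1.25-fold lower (-0.33 ± 0.061, adjusted p = 0.0160). MVK, the kinase before it, had its 4 probe sets at differences between -0.13 and 0.10, with overlapping groups in each. MVD, which removes the carboxyl group to make the first isoprene unit, lay at 5.90 and 5.87 on the ZNF750-labelled arrays and 6.05 and 6.11 on the GFP-labelled arrays (-0.20 ± 0.098, adjusted p = 0.253). Its mean was just below 6. FDPS, which joins isoprene units into farnesyl diphosphate, lay at 10.47 and 10.64 with ZNF750 and 10.56 and 10.65 with GFP, and the 95% interval of its difference ran from -0.21 to 0.11. IDI1, which interconverts the isoprene units, gave -0.14, -0.07 and 0.04 on its 3 probe sets ending in x_at, which marks probes that may also bind other transcripts. Its last, 233014_at, was dim (a mean below 6), with 4.53 and 4.58 in ZNF750-labelled cells and 4.84 and 5.30 in GFP-labelled cells (-0.51 ± 0.16, adjusted p = 0.0927).

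Both measured genes between squalene and lanosterol fell, each on 1 probe set. LSS, the cyclase that folds squalene epoxide into lanosterol, had 9.09 and 9.06 on the ZNF750-labelled arrays and 9.30 and 9.28 on the GFP-labelled arrays at 202245_at. That was 1.16-fold lower (-0.22 ± 0.056, adjusted p = 0.0474), the smallest called fall, and it was lost under cyclic loess, under centring and under a second quantile normalization (adjusted p between 0.11 and 0.12). Its other probe sets, both with a mean below 6, gave 0.02 and -0.09.

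SQLE, the squalene epoxidase and a rate-limiting step of the late route, fell on its dimmest probe set alone. At 213562_s_at the values were 4.28 and 4.19 with ZNF750 and 4.87 and 4.68 with GFP, a difference of -0.54 ± 0.13 (adjusted p = 0.0354, or 0.0511 with the replicate number as a block). The brightest, 209218_at, had 9.88 and 9.77 with ZNF750 and 9.99 and 9.81 with GFP, so its groups overlapped, and the 95% interval of its difference ran from -0.25 to 0.10. The remaining probe sets of SQLE gave 0.01 and -0.02. At a mean below 6, where RMA gives no detection call, whether 213562_s_at lies above background is not known.

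**Figure D3:**
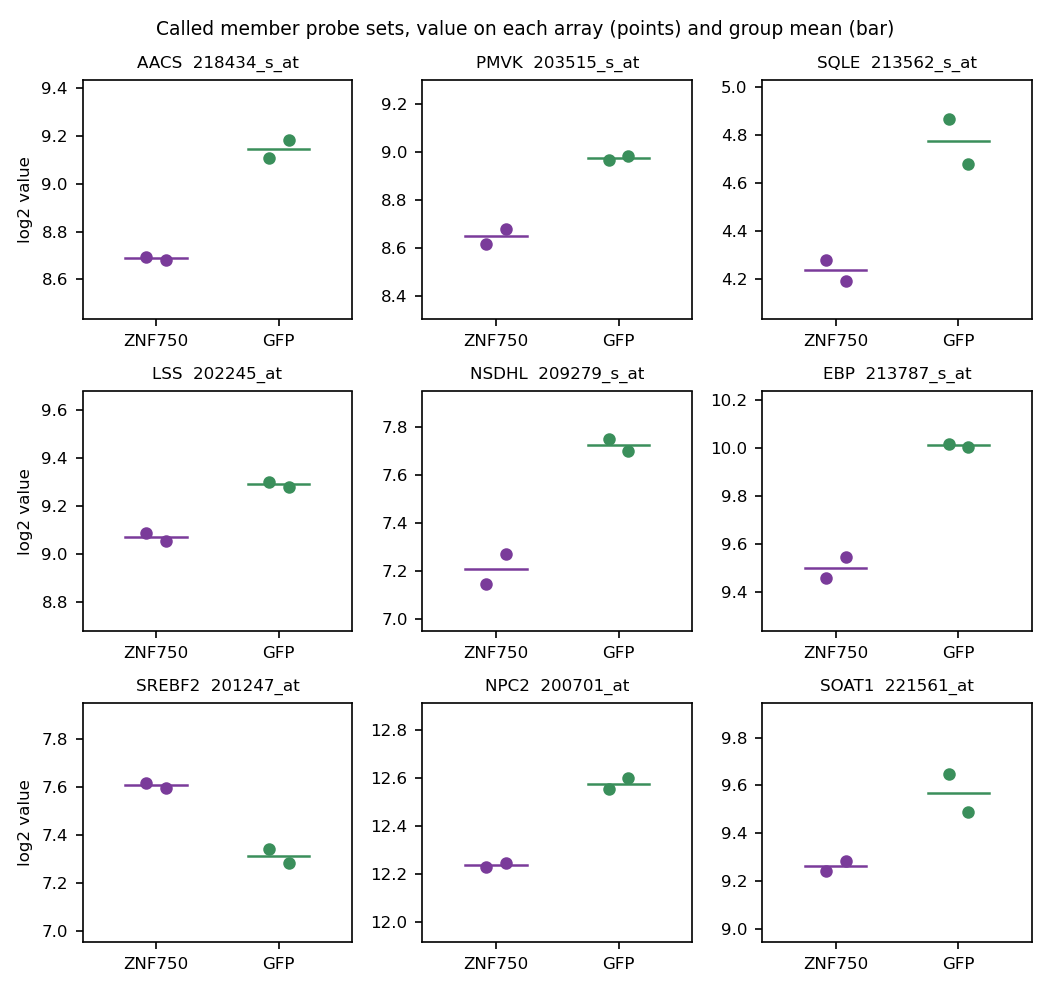
The 9 called member probe sets. Points are the log2 values of single arrays, bars the group means, with ZNF750-labelled arrays at the left of each panel and GFP-labelled arrays at the right; each vertical axis spans 1 log2 unit. In every panel the groups are apart, with ZNF750 below GFP in 8 and above it for SREBF2.

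From lanosterol to cholesterol, 2 of 7 measured genes fell, each on 1 probe set. EBP is the sterol isomerase that shifts the ring double bond. At 213787_s_at it had 9.46 and 9.55 in ZNF750-labelled cells, against 10.02 and 10.01 in GFP-labelled cells, and was 1.42-fold lower (-0.51 ± 0.055, adjusted p = 0.00248). The other bright probe set of EBP, 202735_at, had 9.80 and 9.87 with ZNF750 and 9.96 and 10.01 with GFP (-0.15 ± 0.055, adjusted p = 0.131). All 4 EBP probe sets lay lower in ZNF750-labelled cells, the dimmer ones by -0.18 and -0.24, without overlap of the groups.

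NSDHL is a dehydrogenase that takes part in removing methyl groups from the sterol ring. Its values at 209279_s_at were 7.15 and 7.27 in ZNF750-labelled cells and 7.75 and 7.70 in GFP-labelled cells, a fall of 1.43-fold (-0.52 ± 0.082, adjusted p = 0.00850). At the brighter 215093_at they were 8.24 and 8.30 with ZNF750, against 8.51 and 8.51 with GFP, which missed the threshold (-0.24 ± 0.065, adjusted p = 0.0542). The groups did not overlap on either probe set.

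The other 5 genes of the late steps were not called. MSMO1, the methyl sterol oxidase, had 9.32 and 9.33 with ZNF750 and 9.58 and 9.44 with GFP (-0.18 ± 0.064, adjusted p = 0.118). DHCR7, the reductase of the last step and the gene of Smith-Lemli-Opitz syndrome, gave -0.05 and -0.17 on its 2 probe sets, with 95% intervals from -0.22 to 0.12 and from -0.35 to 0.00. SC5D, the desaturase before it, gave -0.14 and -0.04, with overlapping groups. HSD17B7, the sterol ketone reductase, lay higher with ZNF750, without overlap of the groups. It had 8.48 and 8.62 in ZNF750-labelled cells against 8.42 and 8.33 in GFP-labelled cells (0.18 ± 0.076, adjusted p = 0.193). Its only probe set ends in x_at, and the gene has a near-identical pseudogene. TM7SF2, a sterol reductase, was dim and gave 0.06, with overlapping groups.

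**Figure D4:**
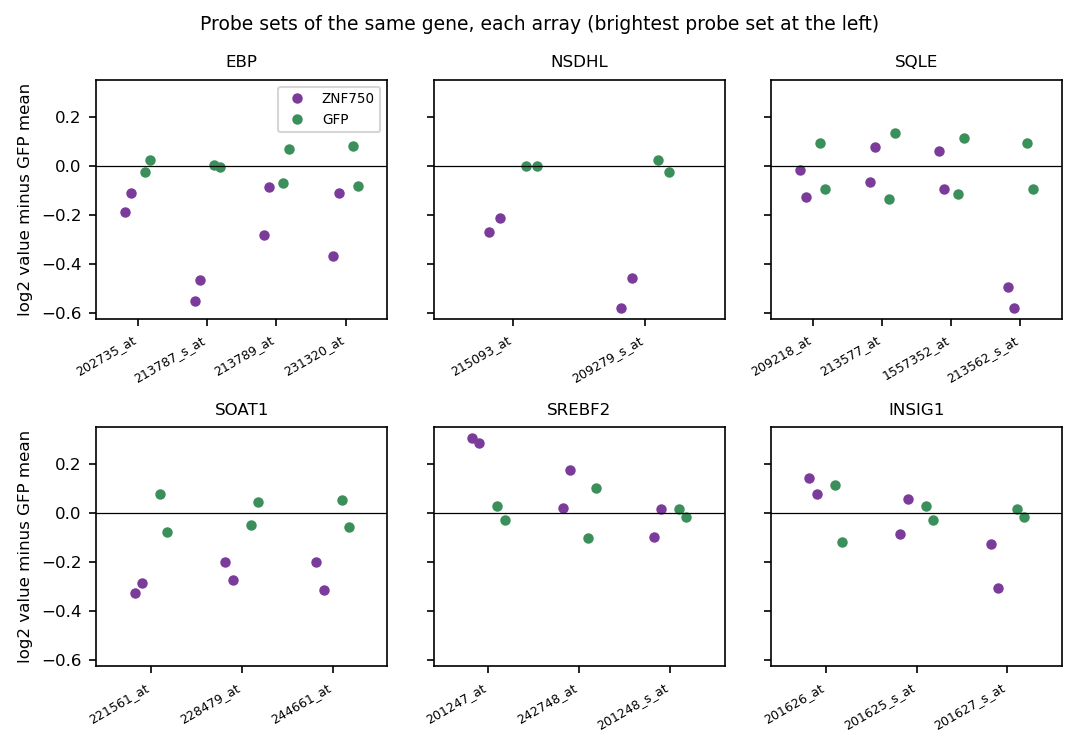
All probe sets of 6 members, each array drawn as its log2 value minus the mean of the GFP-labelled arrays of that probe set, ZNF750 at the left of each pair. The ZNF750-labelled arrays lie below 0 on all probe sets of EBP, NSDHL and SOAT1 and below both GFP-labelled arrays on 1 of 4 of SQLE. For SREBF2 they lie above both GFP-labelled arrays on the brightest probe set alone.

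Whether probe sets of 1 gene differed in response was tested on each array as their difference from the gene's brightest probe set. This comparison was chosen after the data had been seen and used limma without an intensity trend. Of the 27 member pairs 0 passed at an adjusted p under 0.05, as did 0 of 21316 pairs over all genes (0%). At an unadjusted p under 0.05 there were 7 member pairs (25.9%), beside 23.6% of all pairs, so such differences were about as frequent among the members as elsewhere on the array. The 7 were in HMGCS1, SQLE, NSDHL, EBP, SREBF2, INSIG1 and NPC1. For EBP, 213787_s_at responded by -0.36 ± 0.11 relative to 202735_at (adjusted p = 0.127), and for SQLE, 213562_s_at by -0.47 ± 0.11 relative to 209218_at (adjusted p = 0.0851). Of the 8 called falls, 5 (62.5%) were on probe sets ending in s_at, and 44.2% of all member probe sets end in s_at or x_at. Without probe sets ending in s_at, x_at or a_at, 2 of the member genes, NPC2 and SOAT1, fell and 0 rose. Over all probe sets 4.79% then fell, in place of 7.19%, and 3.3% rose. AACS and PMVK have only s_at probe sets and could not be called in that run. The called probe sets of SQLE, NSDHL and EBP were left out too, so these genes were tested there on their other probe sets only.

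Of the 4 genes that control SREBP2 activity, 1 rose and 0 fell, beside 7.72% and 12.4% of all genes. There were 0 falls at an unadjusted p under 0.05 in limma. SREBF2, which encodes SREBP2 itself, had 7.62 and 7.60 on the ZNF750-labelled arrays, against 7.34 and 7.28 on the GFP-labelled arrays, at 201247_at. It was 1.23-fold higher (0.30 ± 0.076, adjusted p = 0.0464), opposite to the enzymes that fell. The other SREBF2 probe sets overlapped between groups, with differences of 0.10 at 242748_at and -0.04 at 201248_s_at, and their mean with 201247_at was not called (0.12, adjusted p = 0.267). With the replicate number as a block the adjusted p of 201247_at was 0.0523.

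SCAP, the escort of SREBP2, lay at 9.47 and 9.34 with ZNF750 and 9.45 and 9.44 with GFP, with a 95% interval from -0.19 to 0.11. INSIG2, which retains SCAP, had 8.34 and 8.29 with ZNF750 and 8.25 and 8.09 with GFP (0.15 ± 0.078, adjusted p = 0.284). INSIG1, the other retention protein and itself a textbook SREBP target, gave 0.11, -0.01 and -0.22 on its 3 probe sets. At the brightest, 201626_at, it had 8.24 and 8.17 in ZNF750-labelled cells and 8.21 and 7.98 in GFP-labelled cells, so the groups overlapped.

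SREBP2 is known to act through sterol regulatory elements, including one in its own gene, so the letters of that element were looked for at the members' gene starts. Windows of 250 bases before to 50 after the start came from RefSeq (GRCh38.p14) for 24 members; ACAT2, FDFT1 and SQLE were not in the table. The core TCACNCCAC, searched on both strands, was in 1 of the 24 (4.17%), SREBF2, and in 1.39% of 27305 genes. A shortened core CACNCCAC, which the longer one contains, was in 4 (16.7%), namely SREBF2, INSIG1, IDI1 and SC5D, and in 7.05% of all genes. None of the 7 members that fell and had a window held either core. Of the 15 not called, 3 held the shortened core and 0 the longer one. With cores this rare, 7 windows are too few for an absence to tell these members apart. The letters CCAAT, the site of the SREBP partner NF-Y, were on either strand in 18 of the 24 (75%) and in 39.7% of all genes. By call, that is 5 of the 7 members that fell, 12 of the 15 that were not called, and SREBF2. A match is a run of letters and not a measured site, and binding was not measured here. The sequences show the SREBF2 element and the CCAAT letters of the 3 members with the lowest adjusted p among the falls that had them. They are read 5′ to 3′ on the strand of the gene, with the motif shown in capitals. The SREBF2 stretch also holds its CCAAT letters, on the other strand, which are left in lower case. The SREBF2 stretch is chr22:41832942-41833010 (+). The EBP stretch is chrX:48521753-48521807 (+), that of NPC2 is chr14:74493597-74493651 (-) and that of NSDHL is chrX:152830954-152831008 (+).
SREBF2: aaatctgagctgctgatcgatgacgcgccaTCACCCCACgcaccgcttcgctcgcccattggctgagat
EBP: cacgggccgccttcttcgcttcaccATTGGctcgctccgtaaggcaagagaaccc
NPC2: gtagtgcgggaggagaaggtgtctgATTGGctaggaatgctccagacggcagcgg
NSDHL: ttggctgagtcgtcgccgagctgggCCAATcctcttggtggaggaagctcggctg

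Of the 4 transport and storage genes, 2 fell. NPC2, the lysosomal protein that hands cholesterol from lipoproteins to NPC1, had 12.23 and 12.25 in ZNF750-labelled cells, against 12.55 and 12.60 in GFP-labelled cells. It was 1.26-fold lower (-0.34 ± 0.036, adjusted p = 0.00226), the lowest adjusted p of any member. Its membrane partner NPC1 did not pass on any of 4 probe sets. At the brightest, 202679_at, NPC1 lay at 9.24 and 9.19 with ZNF750 and 9.34 and 9.18 with GFP, with a 95% interval from -0.21 to 0.12, while the dim 238568_s_at gave -0.32 (adjusted p = 0.0987).

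SOAT1, which esterifies cholesterol for storage in droplets, gave similar differences on its 3 probe sets. At 221561_at it had 9.24 and 9.28 in ZNF750-labelled cells and 9.65 and 9.49 in GFP-labelled cells, a fall of 1.23-fold (-0.30 ± 0.068, adjusted p = 0.0293, or 0.0548 with the replicate number as a block). The others gave -0.24 (adjusted p = 0.0608) and -0.26 (adjusted p = 0.117), and on all 3 the groups did not overlap. STARD4, a soluble sterol carrier, had 6.23 and 6.06 with ZNF750 and 6.26 and 6.20 with GFP, and its groups overlapped (-0.08 ± 0.10, adjusted p = 0.674).

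A further 8 lists of genes around the pathway were read in the same fit, 85 genes measured in all. By the same gene rule 26 fell (30.6%, beside 12.4% of all genes) and 9 rose (10.6%, beside 7.72% of all genes). The share that fell was close to that of the members. Among all genes whose brightest probe set reached 6, 21.4% fell and 11.1% rose. These shares apply to the counts per list below as well. On the brightest probe set of each gene, 13 fell (15.3%) and 8 rose (9.41%), against 5 and 1 of the 25 members and 8.75% and 6.39% of all genes. Among 10 other genes of acetyl-CoA supply and sterol enzymes, 4 fell and 2 rose. ACAT1, the mitochondrial thiolase, had 9.24 and 9.21 with ZNF750 and 9.89 and 9.69 with GFP (-0.57 ± 0.074, adjusted p = 0.00444), and ERG28, the homologue of a yeast scaffold of the sterol demethylation enzymes, gave -0.34 on 217188_s_at but 0.05 on its brightest probe set. LBR, a sterol reductase of the nuclear envelope, gave -0.30. ACSS2, which makes acetyl-CoA from acetate, moved the other way, with 7.28 and 7.43 in ZNF750-labelled cells against 6.71 and 6.72 in GFP-labelled cells (0.64 ± 0.089, adjusted p = 0.00534).

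Of 16 genes of the isoprenoid branch, which draws on the same farnesyl diphosphate, 7 fell and 0 rose (1 at an unadjusted p under 0.05 in limma). GGPS1, which extends it to the geranylgeranyl form, gave -0.71 on a dim probe set, and the prenyl transferase subunit RABGGTB gave -0.58. FNTA, another such subunit, and NUS1, a subunit of the dolichol-forming enzyme, gave -0.55 and -0.54. The brightest probe sets of GGPS1, FNTA and NUS1 gave -0.10, -0.14 and -0.16 and were not called.

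Of 17 genes of SREBP processing and endoplasmic reticulum degradation, 4 fell and 1 rose. ERLIN1 and ERLIN2, which form a membrane complex that restrains SREBP activation, gave -0.57, on a dim probe set, and -0.47, and VCP, the segregase that extracts proteins for degradation, gave -0.41. The brightest probe set of ERLIN1 also fell, by 0.39. RNF145, a ubiquitin ligase known to act on SCAP, gave 0.41 at 238949_at and 0.16, not called, at its brightest probe set. SREBF1, the gene of the related factor SREBP1, was not called (0.14 at its brightest probe set, adjusted p = 0.353).

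Of 18 further transport genes, 7 fell and 1 rose. LIPA, the lysosomal lipase that frees cholesterol from lipoprotein esters and so acts just before NPC2, had 9.25 and 9.37 with ZNF750 and 9.93 and 9.91 with GFP, 1.53-fold lower (-0.61 ± 0.060, adjusted p = 0.00181). A dim second probe set of LIPA gave 0.46 and was not called. SCARB2, a lysosomal membrane protein, gave -0.49 on 201646_at, with a mean of 6.09, and GRAMD1A, a sterol carrier at contact sites, gave -0.49 on a dim probe set. Their brightest probe sets gave -0.16 and 0.26, and neither was called. GRAMD1C, a relative of GRAMD1A, gave 0.75, also on a dim probe set. Of 7 lipoprotein receptor genes, 2 fell, LRP8 (-0.57) and the chaperone LRPAP1 (-0.60 on 242705_x_at, but 0.06 on its brightest probe set), and 1 rose, LSR (0.47). None of 4 oxysterol enzyme genes was called, nor did any reach an unadjusted p under 0.05. Of these, CH25H, CYP7B1 and CYP46A1 were read only by dim probe sets, so whether they were detected is not known.

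The largest difference among these 85 genes was the rise of a sterol efflux gene. LXR is the nuclear receptor that oxysterols activate when sterol is plentiful, and ABCA1 and MYLIP are among its textbook targets. Of 6 measured genes of this list 3 rose (50%, beside 7.72% of all genes) and 0 fell (beside 12.4% of all genes). There were 0 falls at an unadjusted p under 0.05 in limma. ABCA1, which exports cholesterol to apolipoproteins, had 7.88 and 7.70 on the ZNF750-labelled arrays, against 6.31 and 5.81 on the GFP-labelled arrays, and was 3.32-fold higher (1.73 ± 0.16, adjusted p = 0.00142). MYLIP, a ubiquitin ligase that removes lipoprotein receptors, had 9.03 and 8.98 with ZNF750 against 7.77 and 7.86 with GFP (1.19 ± 0.068, adjusted p = 0.000289). NR1H3, which encodes LXR alpha, had 6.66 and 6.37 with ZNF750 and 5.70 and 5.76 with GFP (0.79 ± 0.12, adjusted p = 0.00795). Other probe sets of ABCA1, all with a mean below 6, gave 1.49, called, and 0.24 and 0.13, not called. Those of MYLIP gave 0.24 to 0.83, of which 3 were called. The efflux gene ABCG1 was not called on any of its 4 probe sets, which gave differences from -0.18 to 0.30. All of them were dim, the brightest with a mean of 4.81, so whether ABCG1 was detected is not known.

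SCD, the fatty acid desaturase and a known target of both LXR and SREBP1, had 9.63 and 9.48 on the ZNF750-labelled arrays and 8.08 and 7.94 on the GFP-labelled arrays (1.54 ± 0.079, adjusted p = 0.000242) at its brightest probe set. The other SCD probe sets gave smaller differences, 0.55 and 0.48, both called, and 0.23, not called. SCD was the only gene of 7 in fatty acid synthesis that rose, while the elongases ELOVL5 and ELOVL6 fell (-0.23 and -0.36). A second ELOVL5 probe set gave 0.19, and the brightest of ELOVL6 gave -0.16, neither called. On the brightest probe set of each gene, ABCA1, MYLIP, NR1H3 and SCD gave 0.79 to 1.73, while the members lay between -0.46 and 0.30.

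**Figure D5:**
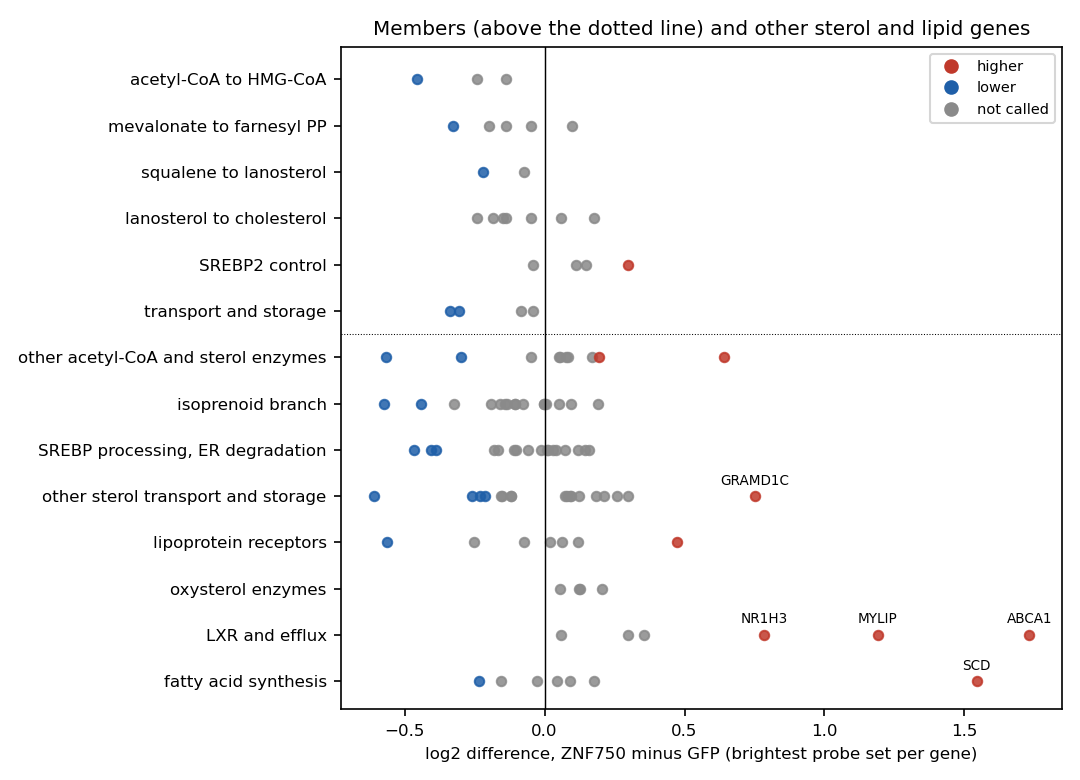
Log2 difference, ZNF750 minus GFP, of the brightest probe set of each gene (points), by pathway step for the members (above the dotted line) and by list for the other genes (below it). Red points rose, blue points fell and grey points were not called; genes beyond 0.7 in either direction are named. The members stay between -0.46 and 0.30, while ABCA1, SCD and MYLIP lie above 1.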

How the data were processed

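The authors deposited log2 values for 54675 probe sets on 4 arrays, made with RMA per the submitters' processing notes; its version and other settings are not given in the sources used here. This method subtracts background, puts all arrays on 1 distribution and condenses probes to 1 value, and it understates differences of dim genes. Apart from 62 control probe sets, which were not tested, 41091 carried 1 symbol in the platform annotation, 1801 several and 11721 none; all 25 measured members matched RefSeq by Entrez identifier. Array medians lay between 5.45 and 5.51.

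ZNF750 minus GFP was estimated by lmFit and eBayes (trend = TRUE) of limma 3.58.1 under R 4.3.3, with 2 residual degrees of freedom, and adjusted by Benjamini-Hochberg over all non-control probe sets. Errors marked ± are limma's standard errors (n = 2 arrays per group). An exact permutation test of 2 against 2 arrays cannot go below p = 0.333 and was not used. The number of arrays limits the precision, and without detection calls or probe positions it is unknown whether dim probe sets lie above background.

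The members and lists were chosen with earlier results of these data known. Named were all members and, per list, up to 4 called genes with the largest difference; SREBF1 and ABCG1 were added after their values were seen. The alternatives covered the variance prior, dim probe sets, the probe set chosen, scaling, the replicate number as a block, thresholds and each array left out.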

Additional observations from a re-analysis of the deposited data

How the results depend on the processing

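Each called probe set kept its direction under every alternative run that tested it, but often not its call. Of the 8 member genes that fell and the 1 that rose, limma without an intensity trend left 1 and 0, as it did for probe sets, and 4 falls and 5 rises among the other sterol genes, against 26 and 9; over all probe sets 1.38% then fell and 0.952% rose. Without probe sets ending in s_at, x_at or a_at, 2 members fell and 0 rose, the median member difference was -0.078 in place of -0.14, and 16 other genes fell and 4 rose. Over all probe sets 4.79% then fell and 3.3% rose. An adjusted p under 0.01 gave 4 falls and 0 rises among members and 10 falls among the other genes, where 2.7% of all probe sets fell and 1.29% rose. A size of at least 0.5 gave 3 falls and 0 rises among members and 9 falls among the others, where 2.67% of all probe sets fell and 1.76% rose. An adjusted p under 0.1 gave 14 lower member probe sets of 52, where 10.1% of all probe sets fell. With 1 value per gene the test was refitted on those values alone. On the brightest probe set 14 other genes then fell, in place of 13 in the main fit, and 10.2% of all genes fell. On the mean of probe sets 12 other genes fell and 0 members rose, where 8.09% of all genes fell and 5.27% rose. The median member difference was -0.074 under cyclic loess, -0.073 under centring and -0.078 under a second quantile normalization. Centring gave 14 rises among the other genes, where 8.2% of all probe sets rose. The replicate numbers share only a number (r = 0.13 between the groups' replicate differences over 54613 probe sets). With them as a replicate block 6 members fell and 0 rose, where 6.94% of all probe sets fell and 3.67% rose. Leaving out each array in turn gave a median member difference from -0.17 to -0.085, with few or no calls left among members. The lone array of a group is then assumed to vary like the others. Calls over all probe sets also dropped, far more without a GFP-labelled array than without a ZNF750-labelled one. The causes were not tested. The EBP probe set 213787_s_at kept its call in the 8 settings that tested it and changed neither array nor threshold. It ends in s_at and is not the brightest of EBP. The runs on the brightest probe set, on the mean of probe sets and without s_at probe sets therefore did not test it by itself. The brightest, 202735_at, was not called in the main fit (-0.15, limma adjusted p = 0.131). With 1 array left out, 213787_s_at lay between -0.55 and -0.47, and member calls were lost as described above.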
